A study of Mus musculus with 24 samples.

Results

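The mitochondrial ribosomal proteins are described here in the epididymal white fat of mice, as the genes whose symbol starts with Mrpl or Mrps and a number. Of 19938 genes measured by a probe set with 1 gene symbol, 77 were members, and they were covered by 85 probe sets of the 35556 on the array. A member with more than 1 probe set was represented by the set of highest mean over the 24 arrays. The members were 50 proteins of the large ribosomal subunit, 26 of the small subunit, and Mrps36, which carries the name but belongs to the oxoglutarate dehydrogenase complex. Mrps30 and Mrps18a were counted with the large subunit, where their proteins sit in spite of their names. All 77 were tested, with no filter on low values, and 1 further probe set that carried another symbol as well was left out.

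The 24 mice were wild-type C57Bl/6 males in 4 groups of 6. The groups were lard-fed germ-free, lard-fed conventional, fish oil-fed germ-free and fish oil-fed conventional mice. All diets gave 45% of energy as fat, from lard or from menhaden fish oil, and were fed for 11 weeks, to mice whose age the labels give as 11 weeks. All mice were fasted for 4 h before tissue was taken. Germ-free mice are raised without any microbes, and the labels do not say whether the germ-free and the conventional mice came from the same colony. Each mouse gave 1 array of 1 colour, and the values are log2 intensities, so a difference of 1 is a doubling. A level of a probe set depends on its own probes, so levels are compared between mice and never between genes.

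Mitochondria keep a small genome that encodes core subunits of the respiratory chain, and these are made inside the organelle by ribosomes of their own. All proteins of this ribosome are encoded in the nucleus, made in the cytosol and imported. Many descend from bacterial ribosomal proteins and others are found only in mitochondria. White fat cells use mitochondria for fatty acid oxidation and for the acetyl units of fat synthesis, and mitochondrial genes of white fat are known to fall in obesity.

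The members were lower with lard than with fish oil, and lower in germ-free than in conventional mice, with median differences of -0.35 to -0.33 in the 4 comparisons. The mean of the 77 members had its lowest, median and highest values at 8.94, 9.04 and 9.16 in lard-fed germ-free mice, 9.13, 9.45 and 9.57 in lard-fed conventional mice, 9.27, 9.37 and 9.57 in germ-free mice on fish oil, and 9.66, 9.72 and 9.84 in fish oil-fed conventional mice. Every fish oil-fed conventional mouse lay above every mouse of the other groups, and the lard-fed conventional and fish oil-fed germ-free mice overlapped. The fish oil-fed conventional group had the highest mean in 75 of the 77 members, against 29.2% of all genes. The lard-fed germ-free group had the lowest mean in 65 members, against 42.1% of all genes. Both ends of the order held together in 65 members and in 19.7% of all genes. RNA came from whole tissue, so fewer cells of a type and less RNA per cell cannot be told apart.

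**Figure D1:**
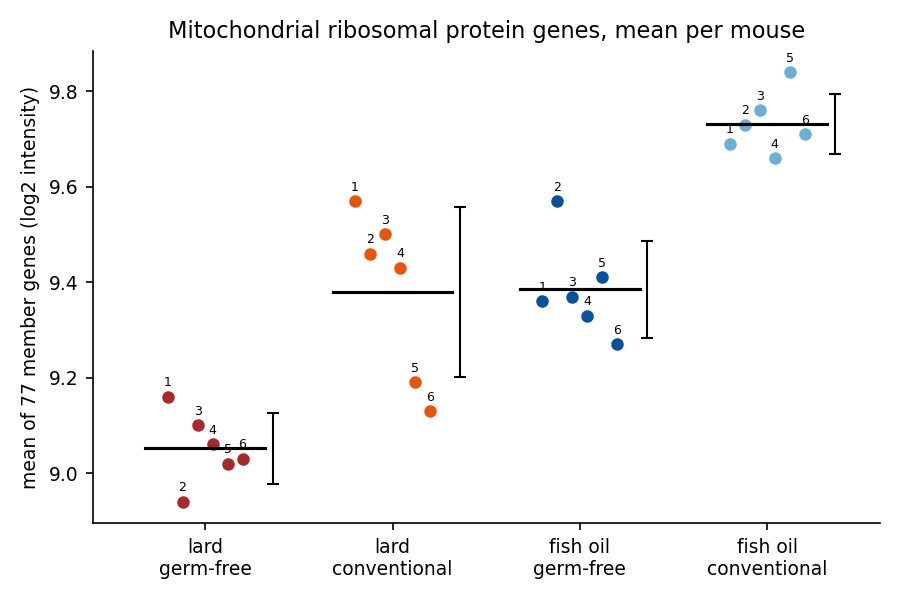
Mean log2 intensity of the 77 members (vertical axis) in each mouse of the 4 groups (horizontal axis), with points numbered by mouse, a line at the group mean and a bar of 1 SD to each side (n = 6). Lard-fed germ-free mice span 8.94 to 9.16, fish oil-fed conventional mice span 9.66 to 9.84, and lard-fed conventional mice 5 and 6 at 9.19 and 9.13 lie below the other mice of their group.

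**Figure D2:**
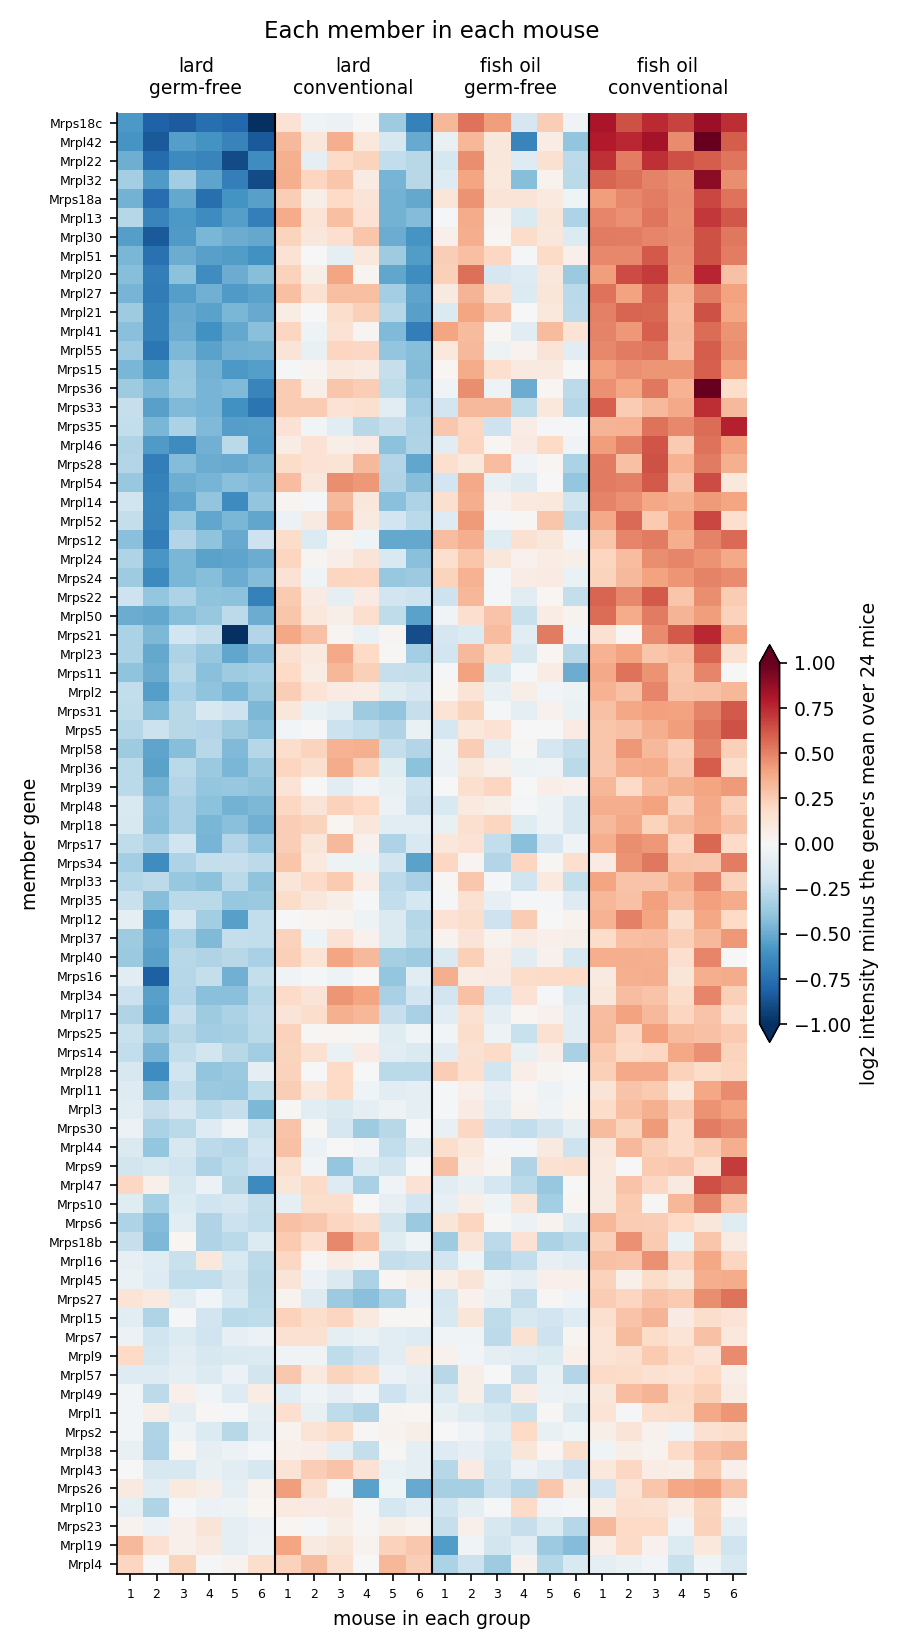
Each of the 77 members (rows) in each of the 24 mice (columns, by group and mouse number), coloured by its log2 intensity minus the mean of that gene over all mice, with values beyond either end of the colour scale drawn in its end colour. Rows are ordered by the difference between the fish oil-fed conventional and the lard-fed germ-free means, so the largest differences are at the top and Mrpl4, which runs the other way, is at the bottom.

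The first question is what the fat in the diet changed. In conventional mice 58 of the 77 members fell with lard and 1 rose (limma, Benjamini-Hochberg adjusted over all genes, threshold 0.05), against 15.6% of all genes lower and 15.4% higher. The median member differed by -0.35, a 1.27-fold decrease, against a median of -0.04 over all genes. In germ-free mice 56 members fell and 3 rose, against 27.1% of all genes lower and 20.4% higher, with a median of -0.35 for the members and -0.08 for all genes. With each array centred on its own median, the germ-free background turned to 16.6% lower and 24.1% higher, and 48 members fell. The groups did not overlap at all in 33 members that were lower in conventional mice, against 6.62% of all genes, and in 35 in germ-free mice, against 11.1%. Of the members that fell, 9 in each comparison were lower by at least 1.5-fold, against 2.76% of all genes in conventional and 3.59% in germ-free mice. In all, 47 members fell with lard in both bacterial states, against 9.85% of all genes.

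Lard-fed conventional mice 5 and 6 bear on the comparison in conventional mice. Both lay below the other 4 mice of their group in 57 of the 77 members, against 19.2% of all genes. Without them 38 members passed the threshold in conventional mice, 37 lower and 1 higher, against 10.1% and 12.2% of all genes, with a median of -0.25. Among members described below, Mrpl27, Mrpl32, Mrpl44, Mrpl47, Mrps34 and Mrps36 no longer passed there. Lard-fed germ-free mice 2, 4 and 5 had the highest means of a list of intestinal markers in their group, 6.84, 10.02 and 7.00. Mouse 2 also had the lowest member mean of that group, 8.94. In germ-free mice 37 members passed without lard-fed mice 2, 4 and 5, 35 lower and 2 higher, against 12.0% and 14.5% of all genes, with a median of -0.31. Among members described below, Mrpl12, Mrpl32, Mrpl44, Mrpl45, Mrps9, Mrps23, Mrps34 and Mrps36 then no longer passed. With the mean of a liver transcript list as a covariate 38 passed in germ-free mice, 37 lower and 1 higher, against 18.7% and 14.0% of all genes, with a median of -0.41. That covariate ended the germ-free calls of Mrpl4, Mrpl19, Mrpl32, Mrpl42, Mrpl44, Mrpl45, Mrps5, Mrps9, Mrps12, Mrps23, Mrps34, Mrps35 and Mrps36 among those described below. The liver list mean was 6.29 to 7.77 in germ-free mice with lard and 8.20 to 9.73 with fish oil, without overlap. Covariate and diet are thus hard to separate there, which lowers precision, and why calls ended was not tested.

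The second question is what the absence of microbes changed on each diet. In lard-fed mice 52 members fell in germ-free mice and 0 rose, against 8.77% of all genes lower and 7.48% higher, with a median of -0.35 against -0.02 over all genes. In fish oil-fed mice 60 members fell and 0 rose, against 7.15% lower and 5.21% higher, with medians of -0.33 and 0.01. All 77 members had a lower mean in germ-free mice with fish oil, against 46.9% of all genes, and 72 did with lard, against 56.7%. Centring each array moved the fish oil background to 13.8% lower and 3.52% higher, and 70 members then fell. The groups did not overlap in 11 of the lower members with lard, against 2.55% of all genes, and in 29 with fish oil, against 3.81%. On both diets 46 members fell, against 2.72% of all genes. Without lard-fed germ-free mice 2, 4 and 5, which leaves 3 germ-free mice on lard, Mrpl2, Mrpl22 and Mrps18c passed there and the calls of all other members ended, with a median of -0.30. In that fit 0.416% of all genes were lower. With the liver list mean as a covariate 13 members passed in fish oil-fed mice, against 4.19% of all genes lower, with a median of -0.31. They were Mrpl1, Mrpl3, Mrpl9, Mrpl16, Mrpl35, Mrpl42, Mrpl47, Mrps5, Mrps9, Mrps27, Mrps30, Mrps31 and Mrps35. Of these, Mrps9 had no call there without the covariate. The calls of all other members in that comparison ended. The liver list mean was 8.20 to 9.73 in germ-free and 6.41 to 8.18 in conventional mice on fish oil. Covariate and bacterial status are thus hard to separate there, which lowers precision, and why calls ended was not tested.

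A total of 36 members fell in all 4 comparisons, against 1.66% of all genes. A further 6 fell by diet in both bacterial states with no call by status. By status on both diets 4 fell with no call by diet. Another 2 passed no test, and 29 had other mixes of calls. The shares of all genes with these further patterns were not counted. The comparisons share groups, so these counts are not independent of each other.

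**Figure D3:**
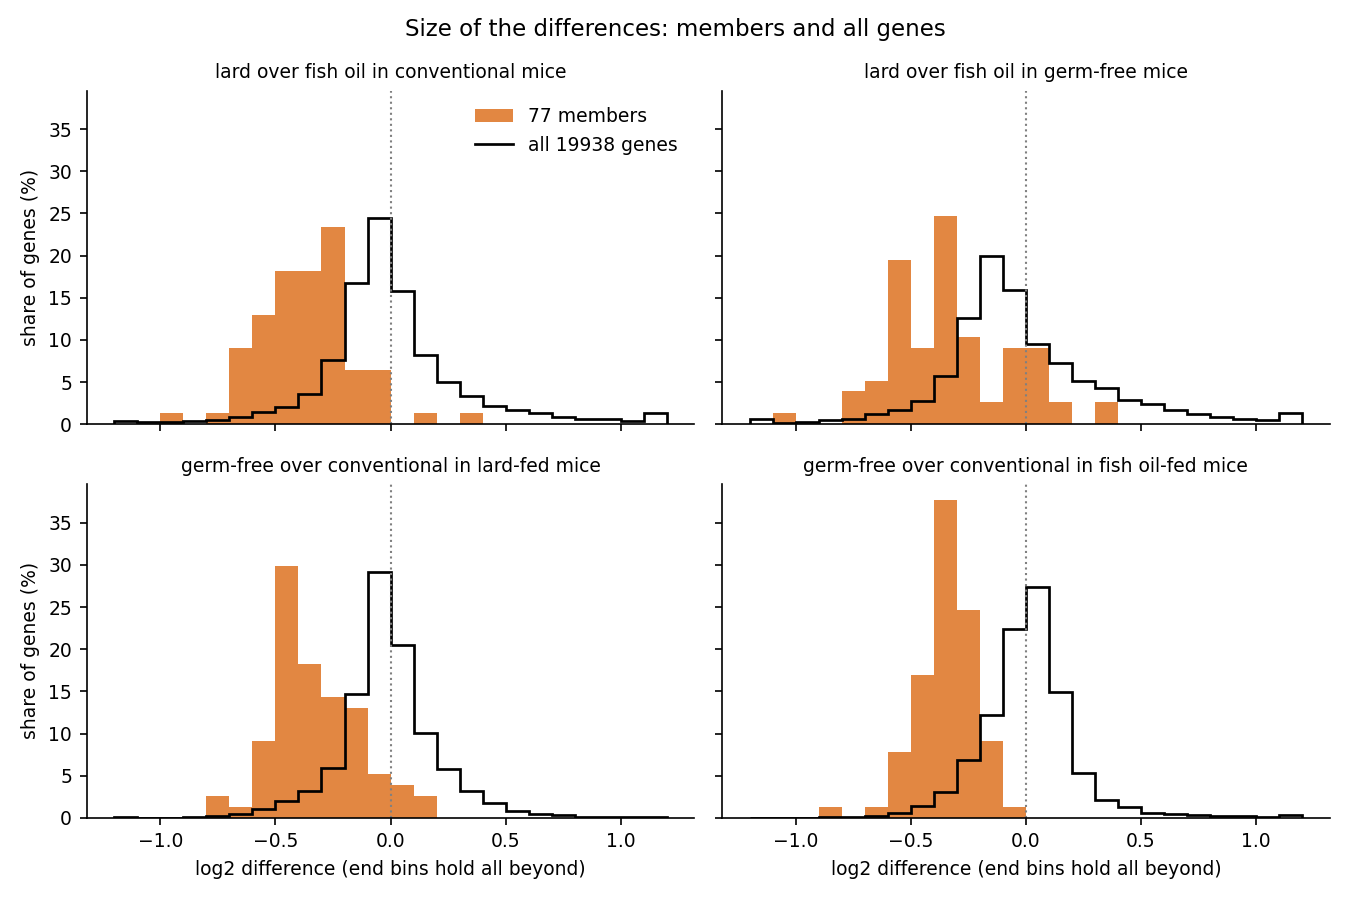
Share of genes (vertical axis, percent) by log2 difference in bins of 0.1 (horizontal axis) for the 77 members (bars) and all 19938 genes (line) in 4 comparisons. The members' medians lie between -0.35 and -0.33 and those of all genes between -0.08 and 0.01.

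Mrps18c showed the largest fall with lard in both bacterial states. It is 1 of 3 mammalian homologues of the bacterial small-subunit protein S18, and the one that takes its place. Mrps18c had 8.81, 9.07 and 9.29 (lowest, median and highest) in lard-fed germ-free mice, 9.19, 9.82 and 10.01 in lard-fed conventional mice, 9.70, 10.15 and 10.41 in germ-free mice on fish oil, and 10.50, 10.61 and 10.72 in fish oil-fed conventional mice. No lard-fed mouse reached the lowest fish oil-fed mouse of the same bacterial state. The difference with lard was -0.91 ± 0.12 in conventional mice (SE, limma adjusted p = 3.63e-06) and -1.02 ± 0.12 in germ-free mice (adjusted p = 7.48e-07), which is 1.88-fold and 2.03-fold lower. In germ-free over conventional mice it was -0.63 ± 0.12 with lard (adjusted p = 0.00114) and -0.52 ± 0.12 with fish oil (adjusted p = 0.00568).

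Its homologues had other patterns of calls. Mrps18a, whose protein sits in the large subunit, had 9.43, 9.62 and 9.72 in lard-fed germ-free mice, 9.68, 10.29 and 10.44 in lard-fed conventional mice, 10.15, 10.31 and 10.64 in germ-free mice on fish oil, and 10.61, 10.68 and 10.86 in fish oil-fed conventional mice. It fell with lard by 0.57 in conventional mice and by 0.75 in germ-free mice, with limma adjusted p of 0.000305 and 1.09e-05, and in germ-free mice by 0.55 with lard (adjusted p = 0.00176). Its fall of 0.37 in germ-free mice with fish oil had an adjusted p of 0.0299, and leaving out any of 7 mice ended that call. Mrps18b, a small-subunit protein, had 10.26, 10.46 and 10.73 in lard-fed germ-free mice, 10.59, 10.92 and 11.19 in lard-fed conventional mice, 10.35, 10.45 and 10.85 in germ-free mice on fish oil, and 10.64, 10.96 and 11.17 in fish oil-fed conventional mice. The diets overlapped for Mrps18b almost wholly. Its difference with lard was -0.04 ± 0.11 in conventional and -0.07 ± 0.11 in germ-free mice (limma adjusted p of 0.843 and 0.595), while it fell in germ-free mice by 0.40 with lard and by 0.36 with fish oil (adjusted p of 0.0136 and 0.0304). The fish oil call ended without any of 8 mice. The difference between the homologues was not itself tested.

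Promoter windows of the 3 homologues are shown because Mrps18c and Mrps18a fell with lard where Mrps18b passed no test. Those of Mrps27, with the largest interaction, and Mrps26, which passed no test, are given beside them. The sequences are from RefSeq, build GRCm38.p6, and run 5′ to 3′ from 250 bases before the gene start to 50 after it. Capitals mark matches to 3 motifs of factors known to act at genes of mitochondrial proteins, searched on both strands: GCGCANGCG for NRF1, CCGGAAG for ETS factors such as GABPA, and ANATGGCGG for YY1. No motif contains another.
Mrps18c, chr5:100798509-100798808, plus strand: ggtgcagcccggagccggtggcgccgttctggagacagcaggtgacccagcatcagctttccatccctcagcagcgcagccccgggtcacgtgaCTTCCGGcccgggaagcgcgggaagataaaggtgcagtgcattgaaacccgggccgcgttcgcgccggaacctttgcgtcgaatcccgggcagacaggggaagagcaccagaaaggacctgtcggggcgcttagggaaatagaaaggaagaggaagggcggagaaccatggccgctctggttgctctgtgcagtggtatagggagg
Mrps18a, chr17:46110754-46111053, plus strand: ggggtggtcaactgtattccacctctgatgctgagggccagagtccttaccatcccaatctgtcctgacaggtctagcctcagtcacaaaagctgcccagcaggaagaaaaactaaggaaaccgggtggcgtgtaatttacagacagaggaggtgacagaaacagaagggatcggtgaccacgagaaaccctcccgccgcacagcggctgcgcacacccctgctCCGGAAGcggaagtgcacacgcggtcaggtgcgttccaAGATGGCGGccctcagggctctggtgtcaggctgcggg
Mrps18b, chr17:35916391-35916690, minus strand: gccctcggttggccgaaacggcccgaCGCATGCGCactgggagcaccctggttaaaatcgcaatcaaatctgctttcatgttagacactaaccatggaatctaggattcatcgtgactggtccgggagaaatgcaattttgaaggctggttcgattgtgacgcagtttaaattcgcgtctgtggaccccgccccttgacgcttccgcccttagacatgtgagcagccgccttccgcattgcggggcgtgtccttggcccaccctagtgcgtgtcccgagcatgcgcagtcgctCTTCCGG
Mrps27, chr13:99344536-99344835, plus strand: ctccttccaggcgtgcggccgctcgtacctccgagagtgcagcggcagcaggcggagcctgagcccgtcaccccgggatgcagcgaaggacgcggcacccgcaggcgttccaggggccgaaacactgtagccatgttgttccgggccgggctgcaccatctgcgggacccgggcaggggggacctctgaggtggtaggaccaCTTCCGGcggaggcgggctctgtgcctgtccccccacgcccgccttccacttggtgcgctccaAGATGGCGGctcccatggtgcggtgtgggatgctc
Mrps26, chr2:130563507-130563806, plus strand: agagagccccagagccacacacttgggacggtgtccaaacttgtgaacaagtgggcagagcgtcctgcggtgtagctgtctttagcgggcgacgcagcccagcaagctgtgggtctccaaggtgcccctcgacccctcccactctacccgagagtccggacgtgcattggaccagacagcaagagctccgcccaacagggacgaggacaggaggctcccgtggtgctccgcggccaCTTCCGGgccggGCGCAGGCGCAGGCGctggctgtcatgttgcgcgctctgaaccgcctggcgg
The window of Mrps18c held 1 ETS match, that of Mrps18b 1 ETS and 1 NRF1 match, and those of Mrps18a and Mrps27 1 ETS and 1 YY1 match each. The Mrps26 window held 2 NRF1 matches that overlap each other, and 1 ETS match. A window was found for 68 of the 77 members and for 15563 of the genes tested. The NRF1 motif was in 16 of the 68 windows, 23.5%, against 9.69% of all windows. The ETS motif was in 24, or 35.3%, against 12.5%, and the YY1 motif in 7, or 10.3%, against 2.77%. At least 1 of the 3 was in 38 of the 68, or 55.9%, against 22.1% of all windows. These are matches of letters, and binding was not measured.

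**Figure D4:**
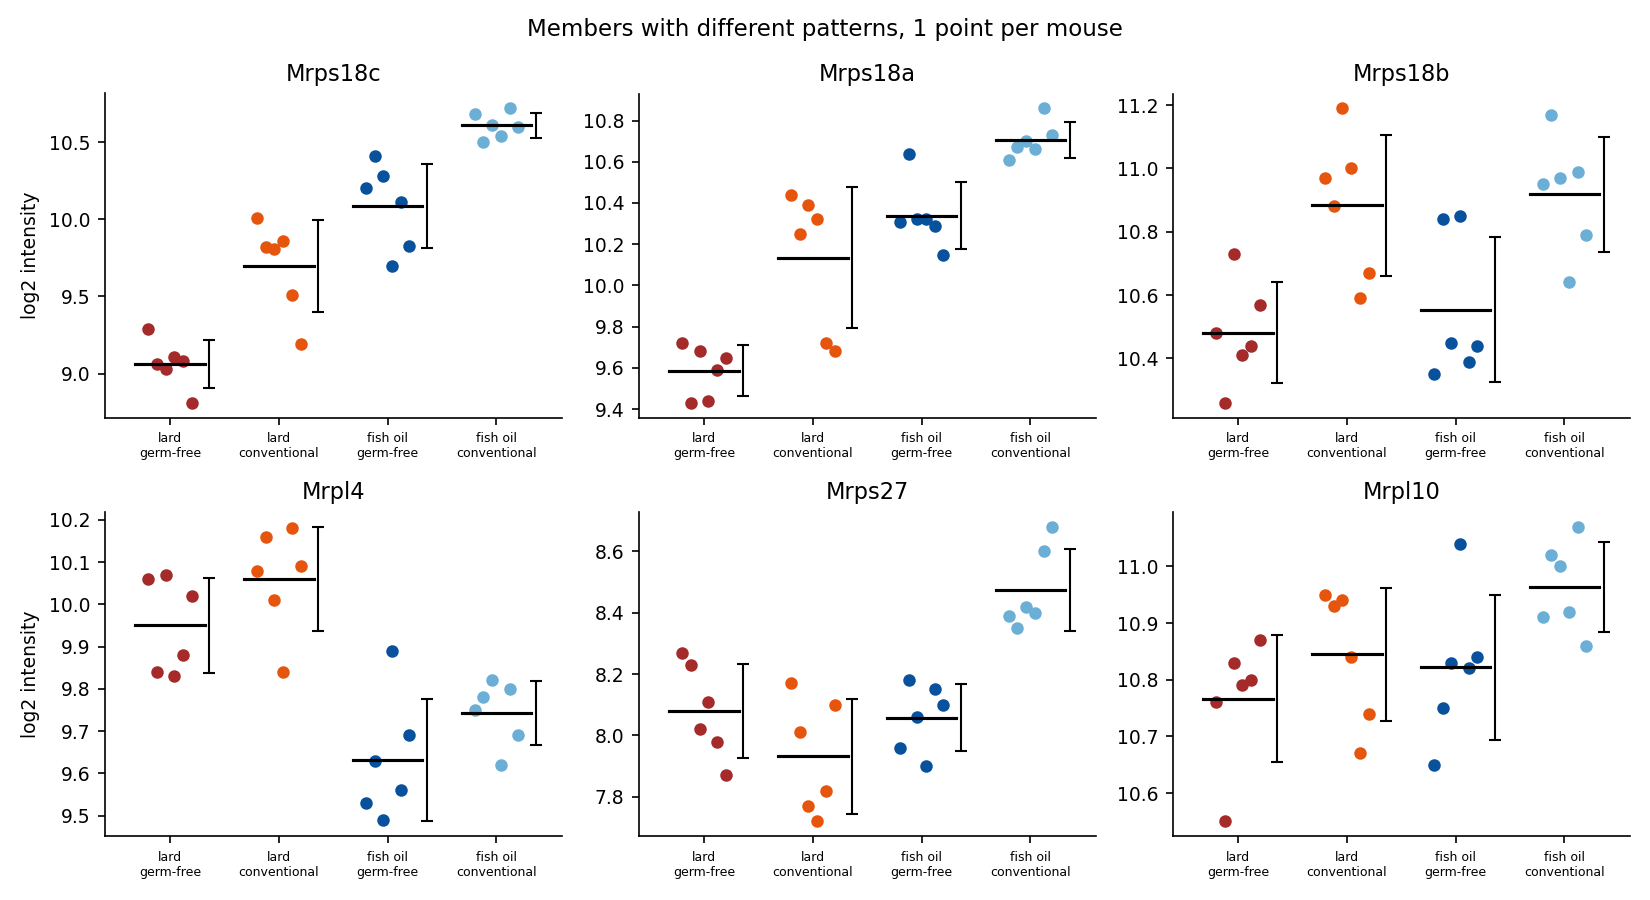
Log2 intensity (vertical axis, a range of its own for each gene) of Mrps18c, Mrps18a, Mrps18b, Mrpl4, Mrps27 and Mrpl10 in each mouse of the 4 groups, with a line at the mean and a bar of 1 SD to each side (n = 6). Mrps18c steps down with lard and in germ-free mice, Mrps18b in germ-free mice, Mrpl4 is higher with lard, Mrps27 is high in fish oil-fed conventional mice, and Mrpl10 passed no test.

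The large subunit held 50 members. With lard 38 of them fell in conventional and 37 in germ-free mice, and in germ-free mice 37 fell with lard and 41 with fish oil. Of all genes 15.6%, 27.1%, 8.77% and 7.15% were lower in the same order. Mrpl42, a protein found only in mitochondria, had the largest fall in germ-free mice on each diet. It had 8.13, 8.33 and 8.42 in lard-fed germ-free mice, 8.46, 9.08 and 9.33 in lard-fed conventional mice, 8.31, 8.96 and 9.30 in germ-free mice on fish oil, and 9.44, 9.74 and 9.96 in fish oil-fed conventional mice. Germ-free and conventional mice did not overlap on either diet. The difference was -0.72 ± 0.14 with lard and -0.84 ± 0.14 with fish oil (limma adjusted p of 0.00162 and 0.000621), or 1.65-fold and 1.79-fold lower. With lard Mrpl42 fell by 0.70 in conventional and by 0.58 in germ-free mice (adjusted p of 0.000512 and 0.00215).

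Mrpl22, which lines the tunnel through which the new protein leaves, and Mrpl2 were the only members whose groups stood apart in all 4 comparisons. How many of all genes did so was not counted. Mrpl22 had 7.36, 7.61 and 7.77 in lard-fed germ-free mice, 7.98, 8.31 and 8.61 in lard-fed conventional mice, 8.00, 8.25 and 8.72 in germ-free mice on fish oil, and 8.77, 8.88 and 8.99 in fish oil-fed conventional mice. It fell with lard by 0.60 and 0.71 in conventional and germ-free mice, and in germ-free mice by 0.70 with lard and 0.60 with fish oil (limma adjusted p from 2.53e-05 to 0.00146). Mrpl32, a protein cut to its mature form by a protease of the mitochondrial inner membrane, fell by 0.59 with lard and by 0.62 with fish oil in germ-free mice (adjusted p of 0.00466 and 0.00479). Its fall with lard was 0.54 in conventional and 0.51 in germ-free mice (adjusted p of 0.00381 and 0.00418).

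Mrpl24, a further tunnel protein, fell with lard by 0.40 in conventional and 0.61 in germ-free mice (limma adjusted p of 0.000414 and 3.35e-06). Mrpl27, which lies near the catalytic centre, fell with lard by 0.43 and 0.60 in conventional and germ-free mice (adjusted p of 0.00872 and 0.000347), and in germ-free mice on lard by 0.58 (adjusted p = 0.00223). Both also fell in germ-free mice with fish oil, by 0.26 and 0.41 (adjusted p of 0.0361 and 0.0285), calls that ended without any of 8 and 5 mice. Mrpl30 fell with lard by 0.58 in conventional and by 0.67 in germ-free mice (adjusted p of 0.000645 and 0.000106).

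Mrpl12 and Mrpl10 form the large-subunit stalk, where translation factors bind. Mrpl12, which also binds the mitochondrial RNA polymerase, had 9.10, 9.39 and 9.59 in lard-fed germ-free mice, 9.40, 9.66 and 9.71 in lard-fed conventional mice, 9.48, 9.78 and 9.94 in germ-free mice on fish oil, and 9.86, 10.05 and 10.19 in fish oil-fed conventional mice. It fell with lard by 0.41 in conventional and 0.40 in germ-free mice (limma adjusted p of 0.000906 and 0.000812). In germ-free mice it fell by 0.26 with lard and 0.27 with fish oil, with adjusted p of 0.0482 and 0.0488, and these calls ended without any of 7 and 8 mice. Mrpl10, the base of the stalk, had 10.55, 10.80 and 10.87 in lard-fed germ-free mice, 10.67, 10.89 and 10.95 in lard-fed conventional mice, 10.65, 10.83 and 11.04 in germ-free mice on fish oil, and 10.86, 10.96 and 11.07 in fish oil-fed conventional mice. All groups overlapped, and its differences of -0.11, -0.06, -0.08 and -0.14 passed no test (adjusted p from 0.194 to 0.502).

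Mrpl44, related to RNase III enzymes, and Mrpl45, which anchors the ribosome at the inner membrane, fell with lard. Mrpl44 fell with lard by 0.28 in conventional and 0.26 in germ-free mice (limma adjusted p of 0.0068 and 0.00748). In germ-free over conventional mice its differences were -0.21 with lard and -0.22 with fish oil (adjusted p of 0.0675 and 0.0567). Mrpl45 fell with lard by 0.27 and 0.22 (adjusted p of 0.00451 and 0.0151), while its differences by bacterial status were -0.14 and -0.19 (adjusted p of 0.203 and 0.0734). For both genes the differences by status had the same sign as those by diet. With centred arrays the differences with lard in germ-free mice were -0.20 for Mrpl44 and -0.16 for Mrpl45 (adjusted p of 0.0521 and 0.114), and with the liver covariate -0.18 and -0.07 (adjusted p of 0.263 and 0.644). Mrps30, a large-subunit protein in spite of its name, fell by 0.44 with lard in conventional mice and by 0.46 in germ-free mice with fish oil (adjusted p of 0.000702 and 0.00259). Its differences with lard in germ-free mice and in germ-free mice on lard were -0.07 and -0.08 (adjusted p of 0.551 and 0.623).

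Mrpl4, a bacterial homologue of the large subunit, was the 1 member that rose with lard in both bacterial states. It had 9.83, 9.95 and 10.07 in lard-fed germ-free mice, 9.84, 10.09 and 10.18 in lard-fed conventional mice, 9.49, 9.60 and 9.89 in germ-free mice on fish oil, and 9.62, 9.76 and 9.82 in fish oil-fed conventional mice. It was 1.25-fold higher with lard in both states, by 0.32 ± 0.07 (limma adjusted p of 0.00103 and 0.000725). Mrpl19, also of the large subunit, rose with lard by 0.37 ± 0.09 in germ-free mice (adjusted p = 0.00203), and its difference in conventional mice was 0.18 ± 0.09 (adjusted p = 0.135). With the liver covariate the differences with lard in germ-free mice were 0.20 for Mrpl4 and 0.22 for Mrpl19 (adjusted p of 0.157 and 0.236). Mrps23 rose with lard in germ-free mice by 0.16 ± 0.07 (adjusted p = 0.0465), and leaving out any of 9 mice ended this call. With the liver covariate its difference there was 0.06 (adjusted p = 0.685). It fell in germ-free mice with fish oil by 0.30 (adjusted p = 0.00468).

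The small subunit held 26 members. With lard 19 of them fell in conventional and 18 in germ-free mice, and in germ-free mice 14 fell with lard and 18 with fish oil. The shares of all genes lower were 15.6%, 27.1%, 8.77% and 7.15% in the same order. Mrps12, part of the decoding centre, had 6.92, 7.20 and 7.41 in lard-fed germ-free mice, 7.10, 7.53 and 7.80 in lard-fed conventional mice, 7.49, 7.75 and 7.98 in germ-free mice on fish oil, and 7.89, 8.11 and 8.18 in fish oil-fed conventional mice. The diets did not overlap in either bacterial state, and the difference with lard was -0.61 ± 0.11 in conventional and -0.55 ± 0.11 in germ-free mice (limma adjusted p of 0.00012 and 0.000256). By bacterial status it was -0.26 with lard and -0.32 with fish oil (adjusted p of 0.118 and 0.0582). With the liver covariate the difference with lard in germ-free mice was -0.43 (adjusted p = 0.0694). Mrps5, a bacterial homologue, fell with lard by 0.56 in conventional mice (adjusted p = 1.62e-06) and 0.34 in germ-free mice (adjusted p = 0.000367). In germ-free mice it fell by 0.39 with fish oil (adjusted p = 0.000817), and its difference with lard was -0.16 (adjusted p = 0.111).

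Mrps35, found only in mitochondria, fell with lard by 0.64 in conventional and 0.48 in germ-free mice (limma adjusted p of 7.46e-06 and 0.00015), and with the liver covariate the germ-free difference was -0.21 (adjusted p = 0.211). Mrps15, a bacterial homologue, fell with lard by 0.53 in conventional and 0.62 in germ-free mice (adjusted p of 1.5e-05 and 1.71e-06). Mrps16, Mrps34 and Mrps9 had the pattern of Mrps12, with falls with lard of 0.29 to 0.54 over the bacterial states and no call by status. The call of Mrps9 in germ-free mice (adjusted p = 0.0241) ended without fish oil-fed germ-free mouse 1, and with centred arrays its difference there was -0.23 (adjusted p = 0.0899). With the liver covariate the germ-free difference was 0.11 for Mrps9 (adjusted p = 0.527) and -0.14 for Mrps34 (adjusted p = 0.523). Mrps36, whose product is no ribosomal protein, fell in all 4 comparisons by 0.40 to 0.55 (adjusted p from 0.0131 to 0.0263). Its calls ended without any of 3 mice by diet in conventional mice, of 2 in germ-free mice and of 2 by status on lard. With centred arrays its difference with lard in germ-free mice was -0.33 (adjusted p = 0.0691).

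Besides Mrps18b, 3 members fell in germ-free mice on both diets with no call by diet. Mrpl15, a bacterial homologue, had 9.11, 9.19 and 9.39 in lard-fed germ-free mice, 9.42, 9.55 and 9.64 in lard-fed conventional mice, 9.16, 9.25 and 9.53 in germ-free mice on fish oil, and 9.49, 9.58 and 9.75 in fish oil-fed conventional mice. It fell by 0.31 ± 0.07 with lard and 0.33 ± 0.07 with fish oil (limma adjusted p of 0.00253 and 0.00259), and its differences with lard were -0.08 in conventional and -0.06 in germ-free mice (adjusted p of 0.412 and 0.447). Mrpl43 fell by 0.21 and 0.25 and Mrpl57 by 0.23 and 0.29 with lard and fish oil. The calls on lard (adjusted p of 0.0351 and 0.0201) ended without any of 9 mice for Mrpl43 and of 2 for Mrpl57.

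Members were also counted by class, as bacterial homologues or as mitochondria-specific. Among 46 classed as homologues of bacterial ribosomal proteins, 35 fell with lard in conventional and 34 in germ-free mice, and in germ-free mice 31 fell with lard and 36 with fish oil. Among 30 classed as mitochondria-specific the counts were 22, 21, 20 and 23 in the same order. The shares of all genes lower were 15.6%, 27.1%, 8.77% and 7.15%. Mrps18a, Mrps18b and Mrpl44 were put in the second class in spite of their bacterial relatives. No difference between the kinds was tested.

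The third question is whether the diet effect differed between germ-free and conventional mice. The interaction, lard over fish oil in germ-free minus in conventional mice, was above 0 in 4 members and below 0 in none (limma), against 4.38% and 2.81% of all genes, a share close to the background. Its median was -0.01 over the members and -0.04 over all genes, and with centred arrays it was 0.08, with 8 members called and a background of 8.47% higher and 1.56% lower. Mrps27, a small-subunit protein with pentatricopeptide repeats, a fold that binds RNA, had 7.87, 8.07 and 8.27 in lard-fed germ-free mice, 7.72, 7.91 and 8.17 in lard-fed conventional mice, 7.90, 8.08 and 8.18 in germ-free mice on fish oil, and 8.35, 8.41 and 8.68 in fish oil-fed conventional mice. Only the fish oil-fed conventional mice stood apart from the others. Its interaction was 0.56 ± 0.12 (adjusted p = 0.00652), with a difference with lard of -0.54 in conventional mice and 0.02 in germ-free mice.

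The other 3 were large-subunit members. Mrpl1, a part of the stalk where spent tRNA leaves, had an interaction of 0.37 ± 0.11 (limma adjusted p = 0.039). Mrpl16, a bacterial homologue, had 0.37 ± 0.11 (adjusted p = 0.0386), and Mrpl49, found only in mitochondria, had 0.32 ± 0.09 (adjusted p = 0.0374). These calls ended without any 1 of 14, 12 and 13 of the 24 mice, and that of Mrps27 held in each of these 24 fits. Without lard-fed conventional mice 5 and 6 the interaction called 8 members, 5 below 0 and 3 above, against 6.01% and 7.58% of all genes. When mice 2, 4 and 5 of the lard-fed germ-free group were left out together it called 1, Mrpl49, against 0.567% of all genes above 0, and the interaction of Mrps27 was 0.54 with an adjusted p of 0.0593.

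Mrps26, found only in mitochondria, passed no test. It had 7.94, 8.10 and 8.15 in lard-fed germ-free mice, 7.52, 8.02 and 8.47 in lard-fed conventional mice, 7.72, 7.81 and 8.32 in germ-free mice on fish oil, and 7.86, 8.33 and 8.46 in fish oil-fed conventional mice. All groups overlapped, and its SD of 0.37 in lard-fed conventional mice and 0.25 in fish oil-fed germ-free mice was wide beside the 0.09 in lard-fed germ-free mice.

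For 8 members a second probe set was available, and for 6 of them both gave the same signs throughout. For Mrpl51, a large-subunit protein found only in mitochondria, the set used here gave -0.66 and -0.73 with lard in conventional and germ-free mice, and -0.44 and -0.37 in germ-free mice with lard and fish oil. Its other set gave -0.41, 0.13, 0.17 and -0.36 in the same order, so its fall with lard in germ-free mice and its fall in germ-free mice on lard rest on 1 of the sets. For Mrpl47 the set used gave -0.32, 0.02, -0.14 and -0.49 and the other -0.12, -0.14, -0.10 and -0.08. Which transcripts each set covers was not checked against a genome here.

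The counts of other gene lists below are read against the shares of all genes given above, which were 15.6% lower and 15.4% higher with lard in conventional mice, 27.1% and 20.4% with lard in germ-free mice, 8.77% and 7.48% in germ-free mice on lard, and 7.15% and 5.21% in germ-free mice with fish oil. On centred arrays the shares were 18.9% and 13.8%, 16.6% and 24.1%, 7.16% and 8.36%, and 13.8% and 3.52%, in that order. After a repeat of the quantile normalization they were 17.1% and 14.7%, 20.1% and 20.1%, 8.18% and 8.12%, and 7.75% and 5.01%. The 4 further mitoribosome proteins measured here go by other names. Chchd1, of the small subunit, fell in all 4 comparisons, by 0.83 and 0.80 with lard in conventional and germ-free mice and by 0.63 and 0.67 in germ-free mice with lard and fish oil (limma adjusted p from 3.93e-05 to 0.00241). Gadd45gip1, of the large subunit, fell by 0.24, 0.43 and 0.42 in the first 3 of these (adjusted p of 0.0454, 0.000474 and 0.00253), and its difference with fish oil was -0.23 (adjusted p = 0.0957). Its call in conventional mice ended without any of 7 mice, and without lard-fed conventional mice 5 and 6 its difference was -0.11 (adjusted p = 0.416). Ptcd3 and Dap3, both of the small subunit, had the pattern of Mrps27. They fell with lard in conventional mice by 0.46 and 0.23 (adjusted p of 8.74e-05 and 0.00791), and their interactions were 0.39 and 0.38 (adjusted p of 0.0354 and 0.0123). The call of Ptcd3 ended without any of 11 mice.

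Of 26 measured factors that assemble this ribosome, 10 fell and 1 rose with lard in conventional mice and 7 fell and 5 rose in germ-free mice, the germ-free shares lying close to those of all genes. In germ-free mice 5 fell and 2 rose with lard, and 10 fell and 0 rose with fish oil, with list medians between -0.20 and -0.05. With centred arrays 5 fell and 5 rose with lard in germ-free mice. Tfb1m, which methylates the small ribosomal RNA, and Eral1, its chaperone, rose with lard in germ-free mice by 0.64 and 0.54 (limma adjusted p of 9.87e-06 and 1.36e-05). Mtg1, a GTPase of large-subunit assembly, fell with lard by 0.59 in conventional and 0.65 in germ-free mice (adjusted p of 0.00035 and 9.23e-05).

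Of 23 measured translation factors and regulators of mitochondrial mRNA, 13 fell with lard in conventional mice and 14 in germ-free mice with fish oil, with none higher, while 8 fell and 3 rose with lard in germ-free mice and 5 fell in germ-free mice on lard. With centred arrays 5 fell and 5 rose with lard in germ-free mice. Tufm, the elongation factor that brings tRNA to the ribosome, averaged 9.63 ± 0.11 in lard-fed germ-free mice, 9.94 ± 0.15 in lard-fed conventional mice, 10.16 ± 0.10 in germ-free mice on fish oil and 10.55 ± 0.10 in fish oil-fed conventional mice (SD, n = 6 each). It fell in all 4 comparisons (limma adjusted p from 5.22e-07 to 0.00392). Slirp and Lrpprc form a complex that stabilises mitochondrial mRNA. Slirp fell in all 4, by 0.46 to 0.74, though with the liver covariate its difference in germ-free mice with fish oil was -0.29 (adjusted p = 0.343), while Lrpprc fell with lard by 0.50 in conventional mice (adjusted p = 0.000199) and had a difference of 0.14 in germ-free mice (adjusted p = 0.223). Its interaction was 0.64 (adjusted p = 0.00566).

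Of 19 measured genes for charging mitochondrial tRNA, 11 fell with lard in conventional mice and 8 in germ-free mice with fish oil, with none higher. With lard in germ-free mice 2 fell and 4 rose, and in germ-free mice on lard 2 fell and 2 rose. Nars2, the asparagine enzyme, rose with lard in germ-free mice by 0.65 and in germ-free mice on lard by 0.63 (limma adjusted p of 2.76e-05 and 0.000487). Sars2, the serine enzyme, fell by 0.27 or 0.28 in all 4 comparisons (adjusted p from 0.00162 to 0.00605). Of 12 genes of mitochondrial DNA upkeep and transcription, 6 fell with lard in conventional mice and 4 in germ-free mice with fish oil, with none higher. With lard in germ-free mice 3 fell and 2 rose, and in germ-free mice on lard 2 fell and 1 rose. Ssbp1, which coats the exposed strand of mitochondrial DNA, fell in all 4 by 0.35 to 0.43. With centred arrays 13 tRNA charging genes and 7 genes of mitochondrial DNA fell in germ-free mice with fish oil. The liver covariate ended the calls of Sars2 and Ssbp1 with lard in germ-free mice and in germ-free mice with fish oil (adjusted p from 0.0683 to 0.0953). With mice 2, 4 and 5 of the lard-fed germ-free group left out, the calls in germ-free mice on lard ended for Chchd1, Gadd45gip1, Tufm, Slirp, Nars2, Sars2 and Ssbp1. Over the lists of assembly factors, translation factors, tRNA charging and mitochondrial DNA, the interaction was above 0 in 5, 4, 4 and 1 genes and below 0 in none, against 4.38% and 2.81% of all genes. These counts depend on the scaling, with 6, 10, 9 and 3 above 0 on centred arrays, against 8.47% of all genes. After a repeat of the quantile normalization 5, 8, 5 and 3 were above 0, against 4.71%. That repeat also gave 1 translation factor below 0, against 2.37%.

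The nuclear subunits of the respiratory chain, the complexes that mitochondrial translation completes, were also widely lower. Of 79 measured, 68 fell with lard in conventional and 69 in germ-free mice, with 1 higher in each, and their median was -0.58 in both. In germ-free mice 62 fell and 2 rose with lard and 56 fell and 0 rose with fish oil, with medians of -0.37 and -0.34. These counts by status depend on the scaling. On centred arrays 54 fell with lard and 69 with fish oil, and after a repeat of the quantile normalization 52 and 41. Ndufa5 and Ndufb8 of complex I fell with lard by 1.28 and 1.24 in conventional and by 1.25 and 1.21 in germ-free mice (limma adjusted p from 2.51e-09 to 1.31e-06). Uqcr11 of complex III fell by 1.10 and 1.25 with lard in conventional and germ-free mice (adjusted p of 6.96e-06 and 1.04e-06).

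Proteins of the cytosolic ribosome, which makes the members' own products, were lower in many genes. Of 61 measured, 44 fell and 1 rose with lard in germ-free mice and 46 fell in germ-free mice on lard. With lard in conventional mice 24 fell and 5 rose, and in germ-free mice with fish oil 15 fell. The counts depend on the scaling: on centred arrays 33 fell with lard in germ-free mice, 41 in germ-free mice on lard, 29 with lard in conventional mice and 38 in germ-free mice with fish oil. After a repeat of the quantile normalization the last was 7. Rpl24 fell with lard by 0.63 in conventional and 0.91 in germ-free mice (limma adjusted p of 2.73e-05 and 3.5e-07).

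**Figure D5:**
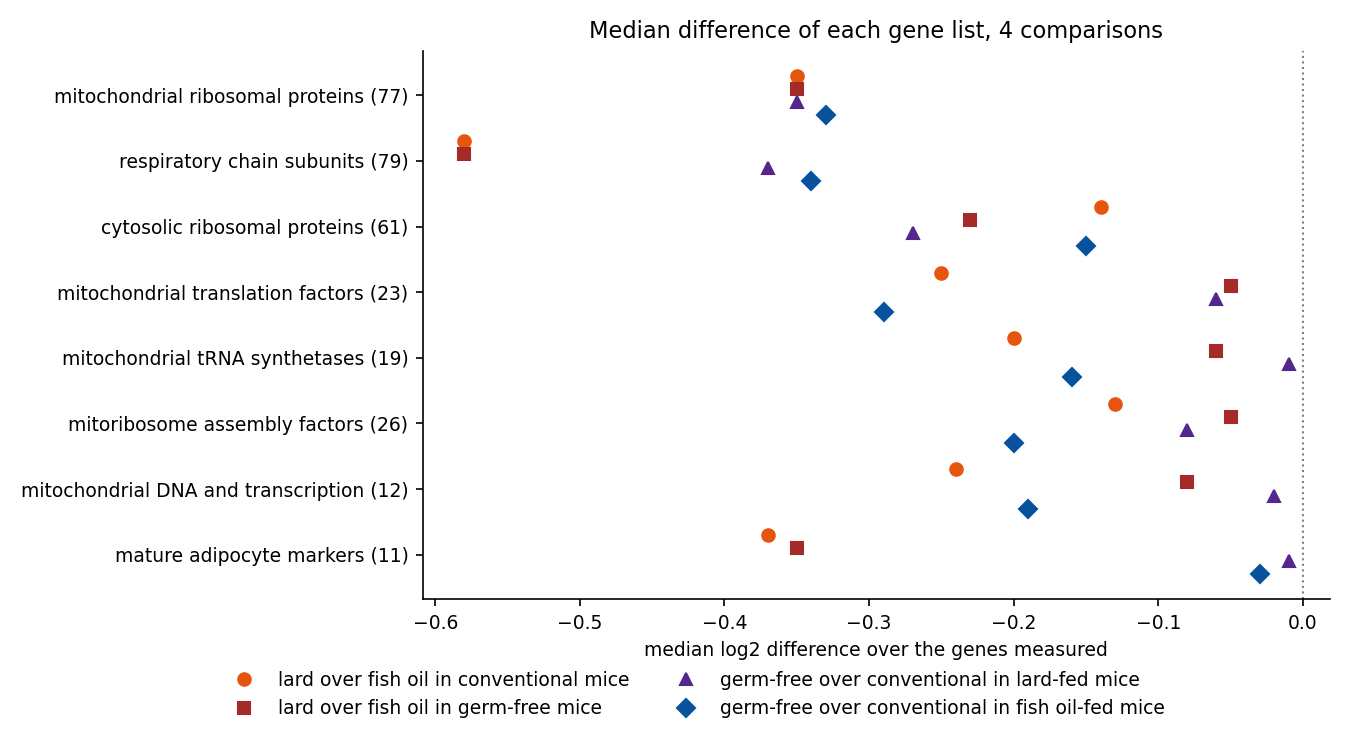
Median log2 difference (horizontal axis) over the measured genes of each list (rows, number of genes in brackets) in the 4 comparisons (symbols). The members and the respiratory chain subunits lie at -0.33 or below in all 4, while the mature adipocyte markers lie at -0.37 and -0.35 by diet and at -0.01 and -0.03 by bacterial status.

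Of 9 regulators of mitochondrial genes, 3 fell with lard in conventional and 4 in germ-free mice, and by status 0 passed on lard while 1 fell and 1 rose with fish oil. Ppargc1a, the coactivator PGC-1alpha, averaged 7.53 ± 0.31 in lard-fed germ-free mice, 7.33 ± 0.34 in lard-fed conventional mice, 8.06 ± 0.21 in germ-free mice on fish oil and 8.56 ± 0.32 in fish oil-fed conventional mice (SD, n = 6 each). It fell with lard by 1.23 in conventional mice (limma adjusted p = 3.14e-06) and by 0.53 in germ-free mice (adjusted p = 0.00843), though with the liver list mean as a covariate the germ-free difference was 0.17 (adjusted p = 0.51). By bacterial status it differed by 0.20 on lard (adjusted p = 0.47) and fell by 0.50 with fish oil (adjusted p = 0.0404). Leaving out any of 7 mice ended that fish oil call. Ppargc1b, its relative, fell with lard by 0.46 and 0.36 in conventional and germ-free mice (adjusted p of 0.000447 and 0.00269), and with the liver covariate the germ-free difference was -0.17 (adjusted p = 0.367).

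Nrf1, Gabpa, Gabpb1 and Yy1, which encode the factors of the 3 motifs, passed no test. Their differences over the 4 comparisons lay between -0.13 and 0.18. Pprc1, a further coactivator, fell with lard in germ-free mice by 0.27 (limma adjusted p = 0.00324), and Esrra, an orphan receptor that works with Ppargc1a, fell with lard in conventional mice by 0.25 (adjusted p = 0.0272), and leaving out either of 2 mice ended this call. Myc rose in germ-free mice with fish oil by 0.47 (adjusted p = 0.0248) and fell with lard in germ-free mice by 0.36 (adjusted p = 0.0337), calls that ended without any of 4 and 5 mice.

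Markers of cell types moved beside these results. Over 11 mature adipocyte markers the mean lay between 12.24 and 13.00 in every mouse. With lard 10 of them fell and 1 rose in conventional mice and 8 fell and 1 rose in germ-free mice, while by bacterial status 0 fell on either diet and 1 rose in germ-free mice on lard. Of 7 mesothelial markers, which label the lining of the depot, 7 fell with lard in conventional and 5 in germ-free mice, and 0 passed by status. Of 12 macrophage markers, 11 rose and 1 fell with lard in each bacterial state, and in germ-free mice 1 rose with lard and 5 with fish oil. The macrophage list mean of germ-free mice was 10.74 to 11.37 with lard and 9.88 to 10.49 with fish oil. That of conventional mice was 10.29 to 11.26 with lard and 9.53 to 10.15 with fish oil. Lard-fed conventional mice 5 and 6, with the lowest member means of their group, had its highest macrophage means, 11.23 and 11.26, and its lowest adipocyte means, 12.24 in both. In lard-fed germ-free mice, mouse 2 had the lowest member mean, 8.94, the highest macrophage mean, 11.37, and the lowest adipocyte mean, 12.35. Mouse 1 of that group had the highest member mean, 9.16, though its macrophage and adipocyte means, 11.26 and 12.38, were next to those of mouse 2. The part of cell makeup in the members' differences was not tested.

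Markers of other tissues also varied, and where their RNA came from was not tested. Of 14 liver transcripts, 13 were higher in fish oil-fed germ-free mice than in fish oil-fed conventional mice, 13 fell with lard in germ-free mice, and 2 rose with lard in conventional mice. The liver list mean of germ-free mice was 6.29 to 7.77 with lard and 8.20 to 9.73 with fish oil. That of conventional mice was 6.65 to 8.25 with lard and 6.41 to 8.18 with fish oil. Of 12 intestinal markers 3 rose in lard-fed germ-free mice in both comparisons that hold that group, and the list mean reached 10.02 in lard-fed germ-free mouse 4, against 5.76 to 7.00 in all other mice. Of 5 epididymal markers 2 fell with lard in germ-free mice, and the list mean was 5.30 to 5.66 in all mice but fish oil-fed germ-free mouse 6, at 6.49.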

How the data were processed

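The authors deposited log2 values from RMA, per the submitters' processing notes, with 1 value for each probe set in each mouse. RMA subtracts background, equalises the arrays' distributions by quantiles and summarises the probes of a set, so a change shared by most genes is removed. The sources used here do not give its version, a genome build or scan dates, so batches were not tested. Values lay between 2.19 and 14.59, with array medians of 7.09 to 7.20, and correlations within groups were 0.979 to 0.995. Per the labels' protocols 250 ng of total RNA from each mouse were amplified and biotinylated.

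Of 35556 probe sets, 21789 had 1 gene symbol, 1621 several and 12146 none, in GEO's platform annotation. Entrez IDs gave the current symbols from a RefSeq gene table (GRCm38.p6, names only), which held 21698 of the 21789. The 19938 genes were fitted together in limma 3.58.1 (R 4.3.3, lmFit and eBayes) as 4 group means, and each comparison was a contrast with Benjamini-Hochberg adjustment over all 19938 genes, two-sided, at 0.05. Every adjusted p of a gene is limma's. The number of arrays, 6 a group, limits the precision.

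The members and all gene lists were chosen with earlier results of these data known. The lists hold other mitoribosome proteins, assembly factors, translation factors, tRNA charging genes, mitochondrial DNA genes, regulators, cytosolic ribosomal proteins, respiratory chain subunits, and markers of macrophages, adipocytes, liver, intestine, mesothelium and epididymis. Genes named are the 10 largest rises and falls among members in each comparison, and a fixed panel. Also named are members with several probe sets or a mouse apart, and all regulators. Of each other list, up to 4 genes were chosen by the largest change past the threshold in a comparison. Not all of these are named. Mrpl2 was named after its values were seen.

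Alternatives were centring each array on its median, a repeated quantile normalization, a filter that dropped genes whose mean was under the 40th percentile, array weights, the mean over a gene's probe sets, robust eBayes with a trend, the mouse number as a block, fits of only the groups compared, leaving out each mouse, leaving out lard-fed conventional mice 5 and 6 or lard-fed germ-free mice 2, 4 and 5, and the liver list mean as a covariate. Tables were handled in Python 3.11.15 (pandas 2.3.3, numpy 2.4.6) and figures drawn with matplotlib 3.10.9.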

Additional observations from a re-analysis of the deposited data

Results flagged for a closer look

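In 17 of 308 groups of 6 values, 1 mouse lay apart from the other 5 by Dixon's test, where chance gives about 1 in 20, or 15.4. Of these, 11 belong to members named here. Low values were those of lard-fed germ-free mouse 2 for Mrpl10 at 10.55 (others 10.76 to 10.87), Mrpl30 at 9.77 (others 10.04 to 10.15) and Mrps34 at 7.83 (others 8.11 to 8.22), of lard-fed germ-free mouse 6 for Mrps36 at 8.24 (others 8.44 to 8.55), and of lard-fed conventional mouse 5 for Mrps16 at 9.09 (others 9.37 to 9.48). High values were those of lard-fed germ-free mouse 1 for Mrpl13 at 9.09 (others 8.69 to 8.82), of fish oil-fed germ-free mouse 2 for Mrpl15 at 9.53 (others 9.16 to 9.28) and Mrps18a at 10.64 (others 10.15 to 10.32), and of fish oil-fed conventional mouse 5 for Mrpl30 at 11.25 (others 11.08 to 11.14), Mrpl32 at 9.90 (others 9.47 to 9.59) and Mrps15 at 11.64 (others 11.44 to 11.50).

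By limma's interaction term adjusted over all genes, the effect of diet differed between germ-free and conventional mice for 4 of the 77 members. Of all genes 4.38% were above 0 and 2.81% below. The term also passed for 11 of the genes named from other lists. Apart from the regulators, those genes were named for their largest changes past the threshold, so their number is not set against these shares. The members were Mrps27 at 0.56, Mrpl1 and Mrpl16 at 0.37 and Mrpl49 at 0.32. Among the other mitoribosome proteins Ptcd3 had 0.39 and Dap3 0.38, and among assembly factors Noa1 had 0.44, Tfb1m 0.64 and Eral1 0.39. Lrpprc had 0.64 and Gfm2 0.52, Iars2 had 0.51 and Nars2 0.77, and Tfb2m, which opens mitochondrial promoters, had 0.75. Myc had -0.63, the negative sign meaning a lower value with lard in germ-free mice than the effect in conventional mice would give. The calls of Eral1 and Myc (adjusted p of 0.0423 and 0.0464) each ended without any 1 of 15 mice, and that of Ptcd3 without any 1 of 11. Without lard-fed germ-free mice 2, 4 and 5 together, Mrpl49, Gfm2 and Iars2 passed and the other 12 genes did not.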

How the results depend on the processing

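In all 4 comparisons of groups, the median of the members stayed below 0 under every alternative run. The number of members past the threshold stayed within 1.5 times of that reported under both scalings, the filter, the mean of probe sets, array weights, the eBayes trend, the fits of only the groups compared and the leaving out of each mouse, in those 4 comparisons. Leaving out each mouse gave 50 to 62 members with lard in conventional mice and 56 to 59 in germ-free mice, and 42 to 57 in germ-free mice on lard and 42 to 63 with fish oil. For the interaction it gave 1 to 5. Without lard-fed conventional mice 5 and 6, 38 members passed with lard in conventional mice and 8 in the interaction, of which 5 were below 0. Without lard-fed germ-free mice 2, 4 and 5, 37 passed with lard in germ-free mice, 3 in germ-free mice on lard and 1 in the interaction, in a fit with fewer mice. With the liver list mean as a covariate 38 passed with lard in germ-free mice and 13 in germ-free mice with fish oil, and the cause of the lost calls was not tested. That covariate turned the difference with lard in germ-free mice to 0.11 for Mrps9 (adjusted p = 0.527), 0.24 for Iars2 (adjusted p = 0.0492) and 0.17 for Ppargc1a (adjusted p = 0.51). Centring each array gave 8 members in the interaction, and its median turned from -0.01 to 0.08.

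Mouse numbers did not pair the mice: deviations of mice with the same number correlated at -0.50 to 0.35, with 1 or 2 of 6 pairs above 0.1 for any pair of groups, and 0 or 1 of 6 mice matched its own number best. With the mouse number as a replicate block 60 and 58 members passed with lard in conventional and germ-free mice, 51 and 58 in germ-free mice on lard and fish oil, and 2 in the interaction. Of 126 calls of named members, 26 were lost on leaving out 1 mouse or another. Of 5472 values of the 76 named genes with a mouse left out, 5165 kept their side of the threshold. No value that passed with or without the mouse changed sign. The 6 mice a group and unknown scan batches limit what can be told from these arrays, and changes near background are compressed.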

Other observations

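Within groups, the members tended to be low or high together in the same mouse. In lard-fed germ-free mice, mouse 2 had the lowest value in 47 of the 77 members, against 28.8% of all genes, and mouse 1 the highest in 39, against 20.7%. In lard-fed conventional mice, mouse 6 was lowest in 44 members, against 23.2%, and mouse 1 highest in 40, against 19.7%. In fish oil-fed germ-free mice, mouse 2 was highest in 50 members, against 16.0% of all genes, and mouse 6 lowest in 31, also against 16.0%. In fish oil-fed conventional mice, mouse 5 was highest in 33 members, against 13.4%. The lowest values of that group were more spread over its mice. Mouse 6 was lowest in 23 members, against 22.5%, and mouse 4 in 20, against 10.5%. Mouse 1 was lowest in 16, against 16.0%, and mouse 2 in 14, against 14.0%. Mouse 6 was also highest in 16 members, against 20.7%.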
